A study of Solanum lycopersicum with 3 samples.

Results

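Phytoene synthase was measured by 5 probe names on the TOM2 tomato array, and these are the subject here: M84744, SGN-U232158, SGN-U212843 and SGN-U212834, which the array files describe as phytoene synthase 1 (PSY1), and L23424, described as phytoene synthase 2 (PSY2). They were chosen by name and description, and every spot of each name was used. Together they occupy 15 of the 13728 spots, since SGN-U212843 was printed 11 times and the others once, and they are 5 of the 11863 names left without control and empty spots. All 15 spots were bright enough to be checked on all 3 arrays, so all 5 names were among the 5720 probes tested.

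Phytoene synthase joins 2 molecules of geranylgeranyl diphosphate into phytoene, the first colourless carotene, and so commits isoprenoid precursors from the plastid to carotenoid synthesis. Tomato carries more than 1 gene for it. PSY1, isolated as the ripening cDNA pTOM5, supplies the chromoplasts of ripening fruit, and its loss gives yellow-fleshed fruit, while PSY2 is known mainly from green tissue. Downstream of phytoene, desaturases and an isomerase make lycopene, and lycopene β-cyclase turns lycopene into β-carotene.

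The Lycb-1 fruit came from tomato cultivar Zhongshu No. 5 carrying the coding region of the citrus lycopene β-cyclase gene Lycb-1 behind the CaMV 35S promoter, which drives expression in most tissues, with the kanamycin resistance gene nptII as selection marker. The wild type was the same cultivar without the transgene. Fruit of both was deseeded at the ripe stage, 10 days post breaker, and RNA was pooled from 4 to 5 fruits of 3 plants. Each of 3 arrays held 1 such pool of each genotype, with Lycb-1 in Cy5 and wild type in Cy3. The dyes were exchanged on 0 arrays and all Lycb-1 fruit descended from 1 transformant, so the dye, the line and the transgene cannot be told apart.

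The labels and the tissue were checked on other probes. The nptII probe X57709 had median intensities of 5098, 8209 and 3732 in Lycb-1, against 68.5, 33.5 and 73 in wild type on arrays 1, 2 and 3. On each array 6289 to 6855 spots were checked, meaning that the brighter channel reached 400, and the 99th percentile of empty spots was at most 34. Of 14 ripe fruit marker names, 11 were tested and 8 of these were higher in Lycb-1 on every array, beside 20.4% of all probes. The summed intensities, before normalisation, were 386825 to 501267 in Lycb-1 and 117371 to 132647 in wild type. They include SGN-U213213, SGN-U213993 and SGN-U231977, which reached 85127, 85134 and 85135, near the highest Cy5 value of array 2 (85139). After normalisation the median log2 ratio of the 11 tested names was 0.89. The list includes SGN-U216046 and SGN-U217693, described as E4/E8 binding protein-1 and not as E4 or E8, with mean log2 ratios of -0.05 and -0.10. The 3 untested names, all described as the ethylene-regulated protein E8, stayed under 400 in both channels. Of 50 green tissue names, 26 were tested and 19 of these were lower and 3 higher in Lycb-1 on every array. Over all probes 21.3% were lower and 20.4% higher. The 2 families in this list differed. The tested chlorophyll a/b-binding names had mean log2 ratios below 0, except SGN-U218906 (0.34). The tested Rubisco small subunit names were mixed, with SGN-U225501 at 1.02, SGN-U225519 at 0.33, SGN-U225500 at -0.12, SGN-U225550 at -0.10 and SGN-U225544 at -0.63. The sums of the 50 green names, also before normalisation, were 71277, 77791 and 37336 in Lycb-1, against 56787, 100887 and 61038 in wild type. In these sums Lycb-1 was above wild type on array 1 and below it on arrays 2 and 3. Of 6 seed names 4 stayed under 400, and the sums before normalisation were 6447 to 11835 in Lycb-1 and 1977 to 4451 in wild type. The only tested seed name, the steroleosin SGN-U216554 (highest intensity 11424), had a higher Lycb-1 signal on each array and a mean log2 ratio of 1.68. Most tested ripe markers and this seed name were higher where most phytoene synthase probes were. Most tested chlorophyll a/b-binding names were lower and the Rubisco names were mixed. The part of these markers in the values below was not tested. In such pooled tissue, fewer cells of a type and less RNA per cell cannot be told apart.

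Before any normalisation the PSY1 and PSY2 spots were bright in ripe fruit of both genotypes. On every array 4 of the 5 names were brighter in Lycb-1 than in wild type. The exception was SGN-U212834. Bright spots in general leaned towards Lycb-1 at this stage. The median log2 ratio of checked spots on arrays 1, 2 and 3 was 0.32, 0.14 and 0.17 at a mean log2 intensity of 12 to 13. At 14 to 15 it was 0.77, 0.42 and 0.53. The share of all probes brighter in Lycb-1 on every array before normalisation was not counted. The PSY1 probe M84744 reached the top of the Cy5 scale. M84744, whose sequence matches the PSY1 protein with an e-value of 2e-236, had Cy5 intensities of 71048, 85135 and 65560 in Lycb-1 on arrays 1, 2 and 3, against Cy3 intensities of 20919, 21358 and 24223 in wild type. The Lycb-1 value was the highest Cy5 value of the whole array, or within 1% of it, on all 3 arrays, while the wild type value was 36.7% to 57.8% of the highest Cy3 value. Before normalisation Lycb-1 was thus above wild type on every array with no overlap of the groups. With Cy5 at its top, the unnormalised ratio of M84744 is a lower bound of the Cy5 to Cy3 ratio only. It is no lower bound of the genotype difference, because spots this bright leaned towards Cy5. Checked spots at a mean log2 intensity of 15 to 16 had median log2 ratios of 0.95, 1.08 and 1.03. The share of all probes without overlap at this stage was not counted. Within 1% of the top of Cy5 there were 15, 17 and 9 spots on the 3 arrays, and M84744 was the only phytoene synthase spot among them.

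SGN-U232158, a second name described as PSY1, with a weaker match (e-value 1e-09) and a link to the Arabidopsis locus AT5G17230, was read well inside the scale. Whether it and SGN-U212834, also a weaker match, detect the same transcript as M84744 cannot be told from the files. Its intensities were 30137, 31567 and 38401 in Lycb-1, against 13149, 11116 and 18617 in wild type. Before normalisation the lowest Lycb-1 value lay above the highest wild type value, and the share of all probes for which this held was not counted. Lycb-1 reached 37.1% to 58.6% of the highest Cy5 value.

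SGN-U212843, the PSY1 name with 11 spots and a match as strong as that of M84744, had median intensities of 51395, 48542 and 37301 in Lycb-1, against 19079, 13898 and 21500 in wild type. On array 1 its spots ran between 11575 and 65657 in Lycb-1 and between 5431 and 26864 in wild type. On array 2 they ran between 3194 and 60630 in Lycb-1 and between 1336 and 17596 in wild type. On array 3 the range was narrower, 20464 to 39776 in Lycb-1 and 14953 to 25141 in wild type. Every one of the 11 spots was brighter in Lycb-1 than in wild type on each array before normalisation, where bright spots in general leaned the same way. Its brightest spot, in block 14 of array 1, reached 92.4% of the highest Cy5 value, and no spot of this name was at the top.

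SGN-U212834, the fourth PSY1 name (e-value 3e-31, also linked to AT5G17230), stood apart from the others. It had 18264, 20535 and 22885 in Lycb-1, against 17449, 22310 and 15478 in wild type. Lycb-1 was higher on arrays 1 and 3 and lower on array 2, and the groups overlapped.

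L23424, the PSY2 probe (e-value 2e-178), had 18387, 12851 and 9040 in Lycb-1, against 9219, 5267 and 6445 in wild type. Lycb-1 was higher within each array, although the Lycb-1 value of array 3 was below the wild type value of array 1. Its spot was brighter than at least 88.4% of checked spots in Cy5 and 80.4% in Cy3. Intensities of different oligos are not on a common scale, so PSY2 cannot be ranked against PSY1 in transcript amount. Oligo sequences were not used here, so binding of PSY1 oligos to PSY2 transcripts, or the reverse, was not tested.

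**Figure D1:**
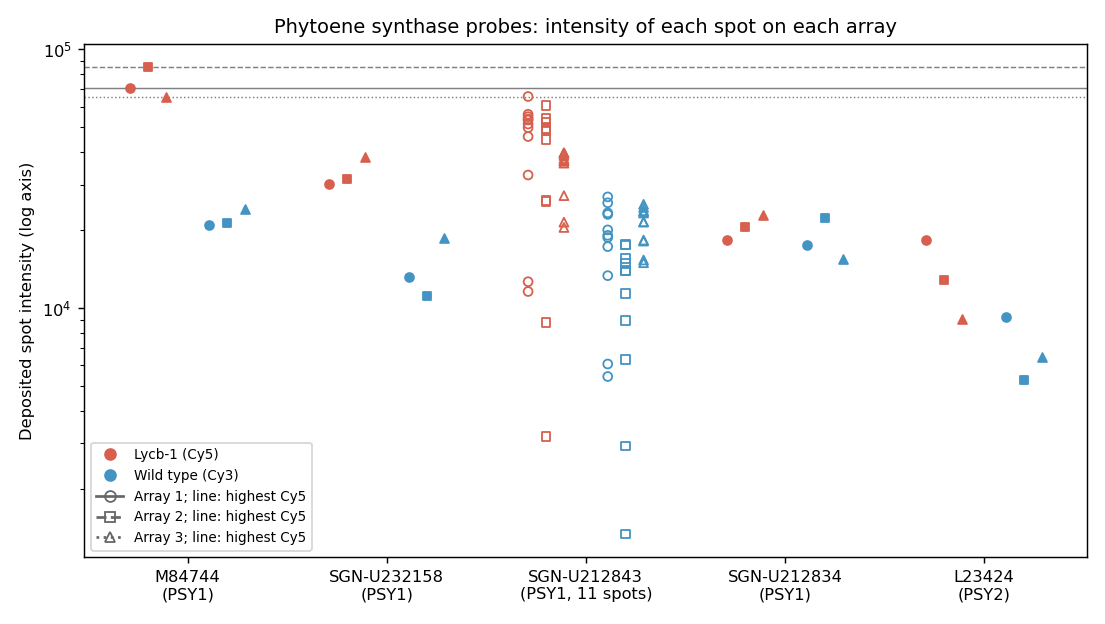
Deposited intensity (log axis) of every phytoene synthase spot on each array, Lycb-1 (Cy5) left of wild type (Cy3) for each probe name, with 1 marker shape per array, open markers for SGN-U212843 and grey lines at the highest Cy5 value of each array. M84744 lies on its array's line in Lycb-1 on all 3 arrays (71048, 85135 and 65560), and the 11 spots of SGN-U212843 spread most on array 2.

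To compare genotypes, the log2 ratio of Lycb-1 over wild type was normalised within each print block by loess. This subtracts a fitted trend of the ratio with brightness, and some of the trend can remain. The PSY1-described SGN-U232158 was 1.72- to 1.95-fold higher in Lycb-1 on single arrays. M84744, with Cy5 at its top, was 1.68- to 1.79-fold higher. The PSY2 probe L23424 was 1.23- to 2.30-fold higher, and SGN-U212834 had no common direction. None of these differences passed the test after adjustment over the whole array. At an adjusted p under 0.05 from limma, 0 of the 5 names were called, where the rate over all probes was 0.0524%. At an unadjusted p under 0.05 from limma, 3 of the 5 (M84744, SGN-U232158 and L23424) were called higher, beside 6.82% of all probes. By direction alone, 4 of the 5 were higher in Lycb-1 on all 3 arrays, beside 20.4% of all probes. The median log2 ratio over the 5720 probes was -0.01.

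M84744 had normalised log2 ratios of 0.80, 0.84 and 0.75 on arrays 1, 2 and 3. They averaged 0.80 with an SE of 0.18 (n = 3 arrays, 95% interval 0.34 to 1.25, adjusted p = 0.217 from limma). Because Cy5 was at its top, the unnormalised ratio is a lower bound of the Cy5 to Cy3 ratio, not of the genotype difference. The normalised ratio also depends on the subtracted curve. On the scale of normalised log2 signal per channel, which limma's Aquantile step makes comparable between arrays, Lycb-1 had 15.58, 15.81 and 15.77 and wild type 14.78, 14.97 and 15.02. The groups did not overlap (means 15.72 in Lycb-1 and 14.92 in wild type), as also held for 7.57% of all probes in this direction. The mean ratio corresponds to 1.74-fold higher in Lycb-1 (95% interval 1.27- to 2.38-fold), with Cy5 at the top of its scale.

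SGN-U232158 had normalised log2 ratios of 0.88, 0.96 and 0.78. The mean of 0.87 corresponds to 1.83-fold (SE 0.18 on the log2 scale, n = 3, 95% interval 1.33- to 2.52-fold, adjusted p = 0.195 from limma). Its normalised log2 signals were 14.67, 14.62 and 15.20 in Lycb-1, against 13.79, 13.65 and 14.42 in wild type, again without overlap. Of all probes, 3.41% had a higher mean.

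SGN-U212843 had mean ratios over its 11 spots of 0.41, 1.04 and 0.10 on the log2 scale. Array 2 was far above array 3, and the mean was 0.52 or 1.43-fold (SE 0.25 on the log2 scale, n = 3, 95% interval 0.922- to 2.22-fold, adjusted p = 0.384 from limma). The normalised log2 signals were 14.74, 14.54 and 14.81 in Lycb-1, against 14.32, 13.50 and 14.72 in wild type. On this scale the 3 Lycb-1 values lay close together (SD 0.14), whereas the wild type values were spread over a wider range (SD 0.62), lowest on array 2 and highest on array 3. The contrast belongs to this scale. Lycb-1 was highest on array 3 here, but its median intensity before normalisation was lowest there (37301). Without array 2 the mean log2 ratio of SGN-U212843 was 0.26.

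SGN-U212834 had normalised log2 ratios of -0.38, -0.45 and 0.06, with Lycb-1 lower on arrays 1 and 2. The mean of -0.26 (SE 0.20, n = 3, 95% interval -0.78 to 0.26, adjusted p = 0.573 from limma) differed from 0 by less than its interval. Its normalised log2 signals overlapped, at 13.91, 14.15 and 14.30 in Lycb-1 and 14.29, 14.60 and 14.24 in wild type. Its direction depends on the normalisation, as its mean was 0.22 with median centring.

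L23424 had normalised log2 ratios of 0.54, 1.20 and 0.29. This PSY2 probe was therefore higher in Lycb-1 on every array. Its mean was 0.68 or 1.60-fold (SE 0.24 on the log2 scale, n = 3, 95% interval 1.04- to 2.47-fold, unadjusted p = 0.0387 and adjusted p = 0.299 from limma). Its normalised log2 signals were 13.90, 13.58 and 13.11 in Lycb-1, against 13.35, 12.38 and 12.81 in wild type, and the groups overlapped because the Lycb-1 pool of array 3 was below the wild type pool of array 1. Without array 2 the mean log2 ratio was 0.42.

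**Figure D2:**
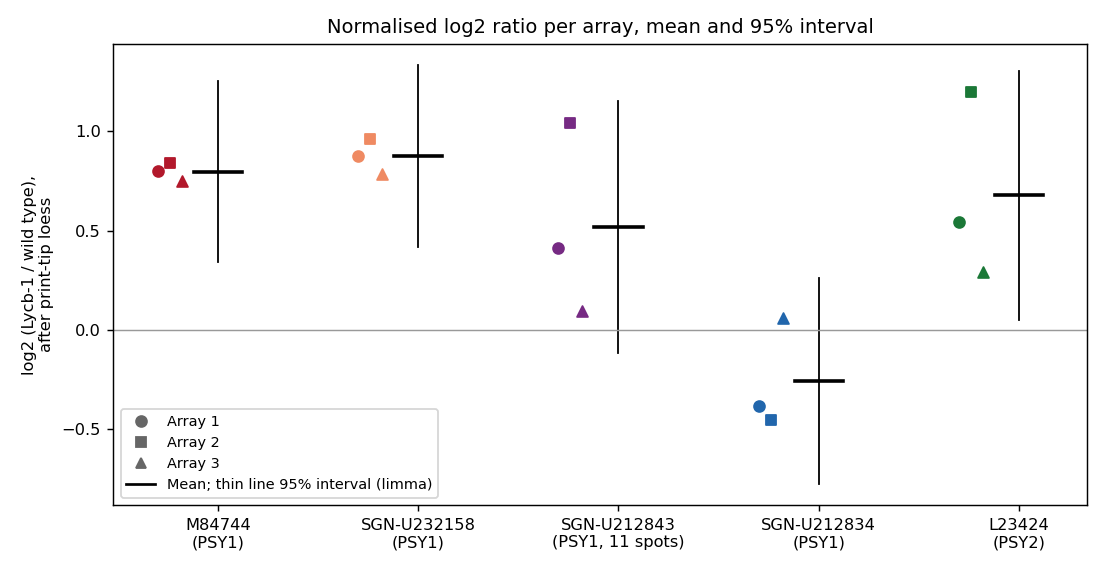
Normalised log2 ratio (print-tip loess, Lycb-1 over wild type) for each phytoene synthase probe (points, 1 shape per array), with the mean (bar) and its 95% interval from limma (thin line). M84744 (Cy5 at its top) and SGN-U232158 lie between 0.75 and 0.96 on every array, SGN-U212843 and L23424 spread with array 2 highest, and SGN-U212834 lies on both sides of 0.

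The 4 names described as PSY1 did not give the same ratio. Log2 ratios of all 10 pairs of probes were subtracted array by array, with an exact sign-flip test over the 3 arrays, two-sided, which cannot go below p = 0.25. SGN-U212834 was below SGN-U232158 by 1.25, 1.41 and 0.72, on every array (exact p = 0.25, adjusted p = 0.417 over the 10 pairs). It was below M84744, whose Cy5 value was at the top of the scale, by 1.18, 1.29 and 0.69. Against SGN-U212843 the gap was 0.79, 1.49 and 0.04, which is nearly closed on array 3. Whether M84744 or SGN-U232158 had the larger ratio cannot be read, since the Cy5 value of M84744 was at the top of the scale. SGN-U212843 and the PSY2 probe L23424 gave ratios close to each other, with SGN-U212843 lower by 0.13, 0.16 and 0.20 on the 3 arrays (SD 0.03), so that the 2 names went up and down together from array to array. This last pair was picked out after its values were seen, and its exact p was 0.25, the smallest possible. SGN-U232158 and M84744, in narrower ranges, were likewise highest on array 2 and lowest on array 3.

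The 11 spots of SGN-U212843 show how far copies of 1 oligo spread over the array. Before normalisation their log2 ratios had means of 1.27, 1.72 and 0.69 on arrays 1, 2 and 3, with an SD over spots of 0.15, 0.23 and 0.17. After print-tip loess the SD was 0.33, 0.34 and 0.20, so the copies were further apart after normalisation than before it on every array. The normalised spots ranged between -0.38 and 0.77 on array 1, between 0.31 and 1.50 on array 2, and between -0.16 and 0.49 on array 3. Of the 11 spots, 10, 11 and 7 were above 0. In the authors' deposited ratio the SD over these spots was 0.25, 0.22 and 0.14.

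The amount taken off a spot differed from block to block. On array 1 the loess lowered the log2 ratio by 1.51 in block 48, where the spot was the brightest of 238, and by 0.37 in block 11, where it was number 14 of 235. Their normalised values were -0.38 and 0.57, while without normalisation they had 1.14 and 0.93, in the opposite order. The spots of blocks 11 and 22 were the dimmest of the 11 on all 3 arrays, with Lycb-1 intensities of 11575 and 12627 on array 1, 8786 and 3194 on array 2, and 21461 and 20464 on array 3. Their normalised log2 ratios of 0.57 and 0.72, 1.29 and 1.16, and 0.04 and -0.04 lay within the range of the other spots. The brightness order of the spots was partly kept between arrays, with Spearman's rho over the 11 spots of 0.60 to 0.67 in Lycb-1 and 0.51 to 0.80 in wild type. The printed positions were the same on each array, while the RNA pools differed between arrays.

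Of the 14 names printed 11 times, 10 had every spot checked. Among these, the mean SD over spots of SGN-U212843 (0.29) was number 2 in order, in a range of 0.12 to 0.32 with a median of 0.20, and the normalised SD was wider than the unnormalised one by more than 0.01 for 6 of the 10. Its SD between arrays, 0.48, was larger than its SD over spots and number 4 of the 10, in a range of 0.14 to 1.05. An SD of 0.29 over 11 spots gives an array mean an SE of 0.09, smaller than the SD of 0.48 between arrays.

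**Figure D3:**
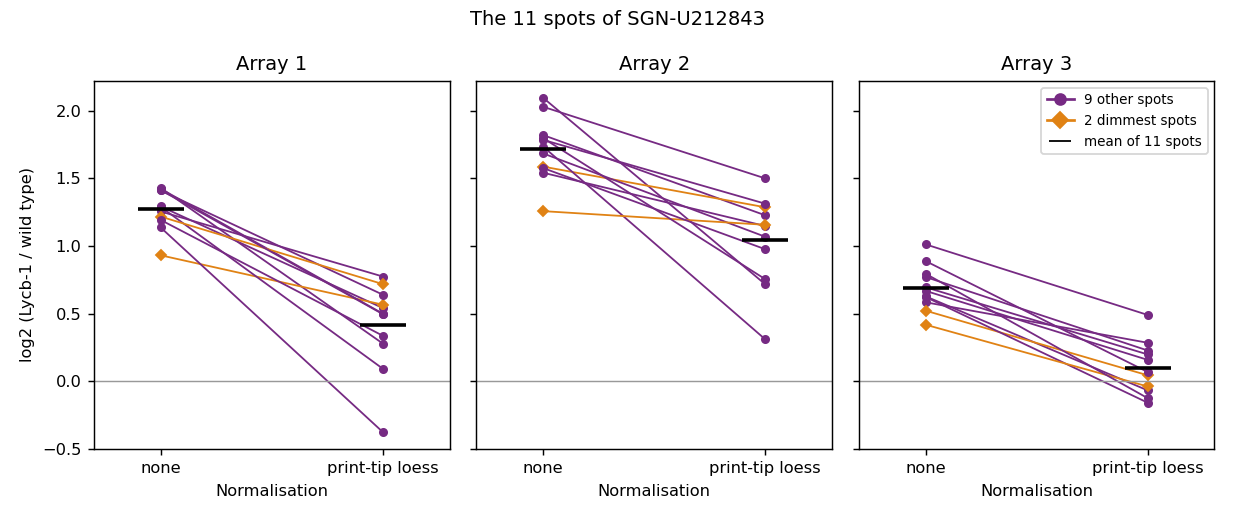
Log2 ratio of Lycb-1 over wild type of each of the 11 spots of SGN-U212843 on the 3 arrays, without normalisation (left of each panel) and after print-tip loess (right), with lines joining the same spot, diamonds for the spots of blocks 11 and 22 and black bars for the mean. The means of 1.27, 1.72 and 0.69 become 0.41, 1.04 and 0.10, and the spread widens on each array.

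Since the phytoene synthase spots are so bright, their ratios rest on how the trend with brightness is removed. Over all checked spots, the median log2 ratio without normalisation was 0.04, 0.01 and 0.06 on arrays 1, 2 and 3 at a mean log2 intensity of 10 to 11, but 0.77, 0.42 and 0.53 at 14 to 15 and 0.95, 1.08 and 1.03 at 15 to 16. After print-tip loess the medians at 15 to 16, the range that holds M84744, were still 0.08, 0.23 and 0.20 (48, 29 and 24 spots). Without normalisation M84744 was at 1.76, 2.00 and 1.44, and loess lowered it by 0.96, 1.16 and 0.69. It was the brightest spot of its block on all 3 arrays, with 0 brighter spots to hold the curve there. Left out of the curve together with the other phytoene synthase spots, an alternative chosen after seeing the data, M84744 had a mean log2 ratio of 1.16 (adjusted p = 0.163 from limma). The mean was 1.07 in the authors' deposited ratio, 1.02 with 1 loess curve per array and 1.78 with median centring (adjusted p = 0.0659 from limma), so its size, but not its direction, turned on this step.

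The other probes were lowered less. SGN-U232158 was at 1.20, 1.51 and 1.04 without normalisation and L23424 at 1.00, 1.29 and 0.49, and loess lowered their means by 0.37 and 0.25. SGN-U212834 was at 0.07, -0.12 and 0.56, near the 0 line on arrays 1 and 2 where spots of its brightness had medians of 0.60 and 0.41.

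The probes were also set beside checked spots within 0.5 of their own mean log2 intensity on the same array, which needs no curve. The unnormalised ratio of M84744 was above that of 80.0%, 86.1% and 78.0% of 75, 36 and 41 such spots. Its Cy5 value was at the top of the scale, as those of other spots in the window may have been, so these shares are not exact. For SGN-U232158 the shares were 83.8%, 85.8% and 76.5%, and for L23424 83.7%, 88.2% and 76.7%. The median shares over the spots of SGN-U212843 were 77.4%, 84.1% and 59.7%. SGN-U212834 was above 20.1%, 19.7% and 62.7%. On array 3 the shares of the 4 names that were higher were their lowest of the 3 arrays, and that of SGN-U212834 was its highest.

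**Figure D4:**
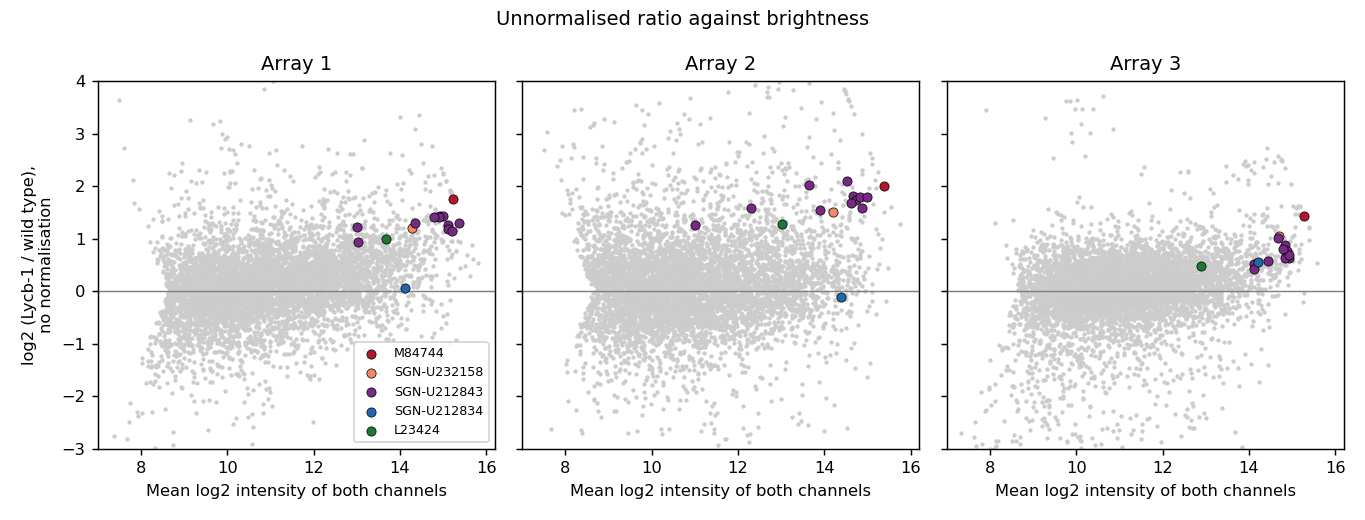
Unnormalised log2 ratio of Lycb-1 over wild type against the mean log2 intensity of both channels for the 5846 checked spots of each array (grey) and the phytoene synthase spots (coloured by name). The cloud bends upward at high brightness, most phytoene synthase spots lie in its upper part and SGN-U212834 in its lower part on arrays 1 and 2, and 20, 38 and 61 grey spots lie outside the axes on arrays 1, 2 and 3.

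**Figure D5:**
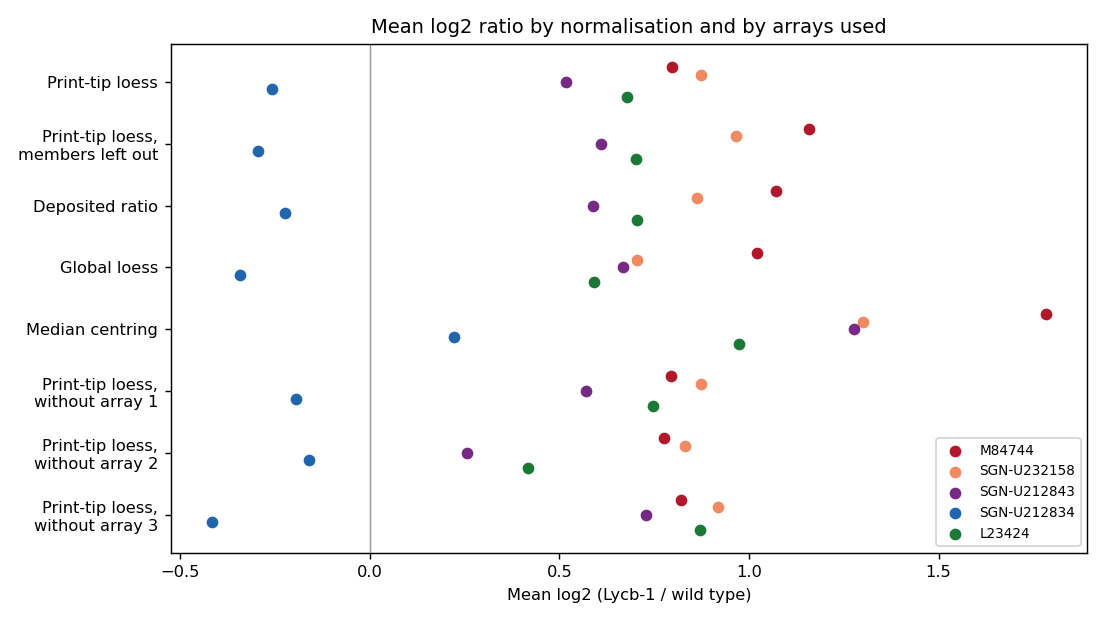
Mean log2 ratio of each phytoene synthase probe under 5 ways of normalising and with each array left out. M84744 runs between 0.78 and 1.78, the 4 other names are highest with median centring, and SGN-U212834 is above 0 only there.

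A further 3 names on the array are described as phytoene synthase without belonging to the 5. SGN-U212842, described as a mutant phytoene synthase, had 25948, 25554 and 20044 in Lycb-1, against 11239, 5868 and 12140 in wild type. Its normalised log2 ratios of 0.38, 1.14 and 0.30 (mean 0.61, SE 0.24, n = 3, adjusted p = 0.334 from limma) had the same order over arrays as SGN-U212843, L23424, SGN-U232158 and M84744. SGN-U212844, described as phytoene synthase 2, was dim, with 623, 704 and 1011 in Lycb-1, against 543, 495 and 858 in wild type. Its log2 ratios were 0.12, 0.11 and 0.35 (mean 0.19, SE 0.18, n = 3, adjusted p = 0.636 from limma). SGN-U230217, also described as phytoene synthase 2, had at most 141 in Lycb-1 and 125 in wild type and was not checked on any array. The 2 further PSY2 names were thus dim where L23424 was bright, but different oligos are not on a common scale.

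By the distance between their 3 log2 ratios, the probes most like SGN-U212843 were SGN-U223175, described as an alphavirus core protein family member (distance 0.07), SGN-U219131, a putative TBP-binding protein (0.08), and SGN-U224069, a glycosyltransferase of family GT2 (0.10). Those most like L23424 were SGN-U232455, an APETALA2-like protein (0.11), SGN-U217872, a putative casein kinase II alpha chain (0.12), and SGN-U219334, a putative chitinase (0.13). With 3 arrays and 5720 probes, such closeness describes these arrays only.

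The rest of the carotenoid route was read in 6 lists of names taken from gene descriptions, leaving out lycopene β-cyclase of the chloroplast type, the step that was introduced. Of 52 names, 34 were tested, 0 passed an adjusted p under 0.05 from limma, 3 were higher and 1 lower at an unadjusted p under 0.05, and the median log2 ratio was 0.20, beside -0.01 over all probes. At that unadjusted level 390 of all 5720 probes were higher and 493 lower. On all 3 arrays, 8 of the 34 were higher in Lycb-1 and 4 lower, beside 20.4% higher and 21.3% lower over all probes. The higher share was thus close to that of all probes, and the lower share was below it. The mean was above 0 for 22 of the 34, beside 2810 of all 5720 probes. The pathway median rested on array 2, as it was 0.02 without that array, 0.33 without array 1 and 0.30 without array 3.

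Upstream of phytoene synthase, in the plastid MEP pathway that supplies isoprenoid units, 4 of 10 tested names were higher on all arrays and 0 lower, beside 1165 and 1220 of all 5720 probes. AF263101, the kinase CMK, had intensities of 3569, 4088 and 3455 in Lycb-1, against 1336, 1089 and 1816 in wild type, and averaged 1.20 on the log2 scale (SE 0.21, adjusted p = 0.179 from limma). SGN-U216658, also CMK, had 1.09 (SE 0.33, adjusted p = 0.270 from limma), and SGN-U218721, described as deoxyxylulose 5-phosphate synthase (DXS), the entry enzyme, had 0.90 (SE 0.18, adjusted p = 0.193 from limma). These 2 were named after their values were seen, because they are the others at an unadjusted p under 0.05. AF143812, another DXS name, had log2 ratios of -0.64, 1.78 and 0.62 with no common direction. Of the geranylgeranyl diphosphate synthases, which make the substrate of phytoene synthase, SGN-U223568 had 1.65, 0.89 and -0.11 and SGN-U215952 had -0.33, 0.28 and -0.26, and 1 of 4 tested names was higher on all arrays.

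Downstream, phytoene desaturase X59948, which acts on the product of phytoene synthase, had log2 ratios of 0.20, 0.47 and 0.54 with a mean of 0.40 (SE 0.19, n = 3, adjusted p = 0.376 from limma). ζ-Carotene desaturase AF195507 had a mean of -0.01 and carotenoid isomerase AF416727 a mean of 0.17, and neither had a common direction over the arrays. The median of the 8 tested names between phytoene and lycopene was 0.33, and 2 of them were higher on all arrays. The chromoplast lycopene β-cyclase AF254793 and the lycopene ε-cyclase Y14387 had at most 52 in either channel and were not tested. Beyond β-carotene, 4 of 8 tested names were lower on all arrays and 0 higher, beside 1220 and 1165 of all 5720 probes. β-Carotene hydroxylase Y14810 had log2 ratios of 0.24, 0.84 and -0.39 with a mean of 0.23. Of the other tested hydroxylase names, SGN-U215829 (mean -0.22) and SGN-U233360 (-0.36) were lower on each array. SGN-U221960, SGN-U224720 and Y14809 had means of -0.06, 0.02 and -0.10. Both names of zeaxanthin epoxidase, which makes violaxanthin, had log2 ratios below 0 on each array. SGN-U221254 had -2.57, -1.90 and -0.35 with a mean of -1.61 (SE 0.45, n = 3, adjusted p = 0.251 from limma), and Z83835 had -3.18, -1.12 and -0.02 with a mean of -1.44 (SE 0.61, adjusted p = 0.345 from limma). Carotenoid cleavage dioxygenase AY576002 had 0.50 (SE 0.33, adjusted p = 0.496 from limma), the largest size among the 4 tested cleavage names. Squalene synthase SGN-U215575, which draws on farnesyl diphosphate for sterols by a condensation like that of phytoene synthase, had at most 383 in Lycb-1 and was not tested.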

How the data were processed

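Per the labels, cDNA of 3 pairs of RNA pools was hybridised to TOM2 arrays. The authors scanned them and deposited background-subtracted intensity values for both channels of 13728 spots, and a ratio (Lycb-1 over wild type) normalised by print-tip lowess in marray. The authors' series table has the same ratio as log2 values (largest difference 4.87e-09). Genome build and software versions are not given in the sources used here. From the intensities, print-tip loess over 48 blocks was run in limma 3.58.1 (R 4.3.3), with empty spots and 13 control names at weight 0. Spots marked by the authors as checked on all 3 arrays (5846) were averaged by name, leaving 5720 probes. lmFit and eBayes (prior degrees of freedom 3.06) tested the mean log2 ratio, two-sided, with Benjamini-Hochberg adjustment over all 5720. Standard errors and intervals are limma's moderated ones. The procedure was tested on simulated data. Members, lists and tests were chosen with earlier results of these data known. Named genes were the 5 members, other names described as phytoene synthase, the pathway genes the study assayed, the largest of each list, the label checks and the 3 nearest probes to SGN-U212843 and L23424. The other tested β-carotene hydroxylase names were added after their values were seen. The authors' comparison columns and lists of differentially expressed genes were not used. RefSeq's tomato gene table matched 0 of 11863 array names, so names and descriptions are those of the files. Precision is limited by having 3 arrays, among other things, and no counts exist. Figures were drawn with matplotlib 3.10.9 (Python 3.11.15).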

Additional observations from a re-analysis of the deposited data

How the results depend on the processing

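In all 13 alternatives tried for SGN-U232158, SGN-U212843 and L23424, and all 12 for M84744, the mean log2 ratio stayed above 0 and short of an adjusted p of 0.05 from limma. The means ran between 0.71 and 1.30 for SGN-U232158, 0.26 and 1.28 for SGN-U212843, 0.42 and 0.97 for L23424, and 0.78 and 1.78 for M84744. M84744 has no value with spots at the top of the scale left out. SGN-U212834 was reversed to 0.22 with median centring, which also set the median of all probes at 0.15 in place of -0.01 and the share above 0 at 63.1% in place of 49.1%. Relative to those medians it was 0.07 with median centring and -0.25 with print-tip loess, and M84744 was 1.64 and 0.81. The cause was not tested. In each alternative 0 of the 5 passed. Over the whole array 3 probes passed, but 9 with global loess, 17 with median centring, 8 with channels as separate samples and no array block, 1 with both channels at 400 or more, and 0 with the authors' ratio, without a filter on dim spots, or with the methods' t-test in place of moderation (613 at an unadjusted p under 0.05, of which 2 were phytoene synthase probes), and 0 to 1 with an array left out. The alternative that kept phytoene synthase spots out of the loess curve was chosen after seeing the data. The median of the pathway probes, 0.20, was recomputed only with median centring (0.43) and with an array left out (0.02 to 0.33), each within its SD between arrays of 0.30.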
